A study of Rattus norvegicus with 6 samples.

Results

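Short 3' fragments are the pieces of a tRNA that keep its 3' end and begin past the anticodon. In small RNA libraries of rat muscle, 977 of the 77567 distinct tRNA-aligned sequences were such fragments of nuclear tRNAs. They matched a mature nuclear tRNA exactly, ended within the last 3 bases of the tRNA and began more than 2 bases after the anticodon. tRNAs for aspartic acid, glutamine and arginine were left out. The libraries were 3 titled as control and 3 titled as experimental, all from muscle of lewis rats aged 6 to 8 weeks. The series title speaks of tRNA fragments as possible biomarkers when a transplant of several joined tissues is rejected, but no treatment of the experimental animals is given, and a phenotype label and the design text speak of skin exposed to UV and of mice. The groups here rest on the sample titles alone. No source says whether libraries with the same title stem from different animals. The p-values therefore cover only how far these libraries vary, which may be technical. A table of tRNA fragments holds no marker of a cell type, so the labelled tissue could not be checked.

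A mature tRNA folds into a cloverleaf. Its 3' end carries the bases CCA, which an enzyme adds after transcription and to which the amino acid is attached. The last part of the molecule is the T arm, a short stem closed by the T loop, followed by the 3' strand of the acceptor stem and the CCA end. The T loop is among the most conserved parts of tRNAs and holds an A that many tRNAs carry as 1-methyladenosine. Short RNAs cut in the T loop and ending in CCA are known as tRF-3, and some of them bind Argonaute proteins as microRNAs do. Muscle RNA also holds tRNAs cut in the anticodon loop, which gives longer pieces.

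The places where most fragments begin are shown first on the whole leucine and glycine tRNAs, since the results turn on them. The capitals mark the last 18 bases of tRNA-Leu-TAG-1-1 (chr10:55710709-55710790, 85 bases with CCA, anticodon at bases 35 to 37) and the last 22 bases of tRNA-Gly-GCC-1-1 (chr3:43183527-43183597, 74 bases with CCA, anticodon at bases 33 to 35). Chromosome positions are as in the deposited file, counted from 1 and without the added CCA, and the strand and genome build behind them are not given in the sources used here.
tRNA-Leu-TAG-1-1: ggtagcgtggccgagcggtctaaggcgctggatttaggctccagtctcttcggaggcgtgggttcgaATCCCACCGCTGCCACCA
tRNA-Gly-GCC-1-1: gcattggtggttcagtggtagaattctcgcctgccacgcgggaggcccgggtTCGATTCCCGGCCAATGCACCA
Cutting at the first place leaves the fragment without the A of the T loop, and cutting at the other leaves the A inside the fragment.

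The most abundant fragments began in the T loop. They are printed with the fragment in capitals and the 6 bases before it in lower case, to show what the cut separated. Where a fragment is found in several tRNA genes, the position of the first is given.
Leu-AAG and Leu-TAG, 18 nt: gttcgaATCCCACCGCTGCCACCA
Ala-CGC and Ala-TGC, 18 nt: gttcgaTCCCCGGCATCTCCACCA
Tyr-GTA, 17 nt: ttcgatTCCGGCTCGAAGGACCA
Tyr-GTA, 18 nt: gttcgaTTCCGGCTCGAAGGACCA
Val-AAC and Val-CAC, 17 nt: ttcgaaACCGGGCGGAAACACCA
Phe-GAA, 17 nt: ttcgatCCCGGGTTTCGGCACCA
Ile-AAT, 18 nt: gttcgaTCCCCGTACGGGCCACCA
Fragments that began 4 bases earlier, before the A, were fewer, and those of glycine, histidine and alanine tRNAs are printed here.
Gly-CCC and Gly-GCC, 22 nt: ccgggtTCGATTCCCGGCCAATGCACCA
His-GTG, 22 nt: ctcggtTCGAATCCGAGTCACGGCACCA
Ala-CGC and Ala-TGC, 22 nt: ccgggtTCGATCCCCGGCATCTCCACCA
Fragments of Glu-TTC began still earlier in 2 experimental libraries, and a longer fragment of alanine tRNA began past the anticodon.
Glu-TTC, 24 nt: gcccggGTTCGACTCCCGGTGTGGGAACCA
Ala-CGC and Ala-TGC, 38 nt: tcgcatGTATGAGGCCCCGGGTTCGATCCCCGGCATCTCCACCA

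The leucine fragment of 18 nt is bases 68 to 85 of 5 tRNAs, among them tRNA-Leu-AAG-1-1 (chr17:45635203-45635284). The alanine fragment of 18 nt is bases 58 to 75 of 5 tRNAs, among them tRNA-Ala-CGC-1-1 (chr17:43930995-43931066). The tyrosine fragments lie in 2 tRNAs, among them tRNA-Tyr-GTA-1-1 (chr6:26856459-26856547), a gene with an intron. The valine fragment lies in 4 tRNAs, among them tRNA-Val-AAC-1-1 (chr2:116415357-116415429), and the phenylalanine fragment in 3, among them tRNA-Phe-GAA-1-1 (chr1:228434808-228434880). The isoleucine fragment lies in 2 tRNAs, among them tRNA-Ile-AAT-1-1 (chr2:266305399-266305472). The glycine fragment of 22 nt is bases 53 to 74 of 4 tRNAs, among them tRNA-Gly-CCC-1-1 (chr2:198461976-198462046), and the histidine fragment is bases 54 to 75 of tRNA-His-GTG-1-1 (chr2:198546107-198546178), the only histidine tRNA in the set. The 24 nt fragment is bases 52 to 75 of 2 Glu-TTC tRNAs, among them tRNA-Glu-TTC-3-1 (chr15:55460897-55460968). The 38 nt fragment is bases 38 to 75 of 2 tRNAs, among them tRNA-Ala-CGC-2-1 (chr17:45554861-45554932).

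The fragments were a small part of the tRNA-derived RNA and were unevenly spread. Of the 977 sequences, 301 were read once, 298 had at least 10 reads over the 6 libraries and 156 were found in every library. The 12 most abundant held 43.0% of the reads, as a mean over libraries. Fragments came from 129 of 168 tRNAs and from 19 kinds of tRNA, counting initiator methionine and selenocysteine apart. Because copies of a tRNA share their 3' ends, 573 fragments matched more than 1 tRNA, but none matched tRNAs of 2 amino acids within the set, and 9 also matched arginine tRNAs. None matched a mitochondrial tRNA or a tRNA precursor, and none was found in the 1143 rat miRNA and hairpin sequences of RefSeq. The deposited table types 101 of them as tRF-3a (17 to 18 nt, 58.3% of reads) and 109 as tRF-3b (19 to 22 nt, 7.24% of reads), all with the whole CCA. The remaining 767 are typed as Other and held 34.5% of reads.

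Control replicate 1 stood apart. It held 12869 reads of short 3' fragments, against 3550 and 2880 in the other control libraries and 5506, 6072 and 4787 in the experimental ones. All tRNA-aligned reads ran from 316990 to 1927269 per library, and the deepest libraries were experimental. The fragments took 2.34% of tRNA-aligned reads in control replicate 1 (95% Wilson interval 2.30 to 2.38), 0.479% in replicate 2 (0.464 to 0.495) and 0.908% in replicate 3 (0.876 to 0.942). They took 0.628% (0.612 to 0.645), 0.315% (0.307 to 0.323) and 0.257% (0.249 to 0.264) in experimental libraries. The intervals hold for counting error alone, as PCR can copy a molecule many times. The means were 1.24% ± 0.974 and 0.400% ± 0.1998 (SD, n = 3 each), the groups overlapped, and a two-sided exact permutation test gave p = 0.2. Without control replicate 1 the difference fell from -0.843 to -0.294 percentage points.

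This share depends on how many other fragments the library holds, and glycine tRNA gave most of the nuclear reads. Among nuclear tRNA reads with all glycine sequences removed on both sides, short 3' fragments took 17.9%, 7.03% and 10.6% in control and 3.15%, 1.69% and 2.67% in experimental libraries. Here every experimental library lay below every control library (11.8% ± 5.51 and 2.50% ± 0.746, SD, n = 3 each, exact permutation p = 0.1, the smallest that 3 against 3 libraries allow, adjusted p = 0.2 over 3 ways of forming the share). How far the amount of other fragments sets this difference was not tested.

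Most fragments began at a fixed distance from the 3' end. Starts 16 to 18 bases from the end, at the 3' side of the T loop or the next base, took 92.5%, 63.9% and 73.9% of the reads in control and 76.5%, 63.2% and 78.4% in experimental libraries. The start 18 bases from the end alone took 36.9% to 46.6%, and the start 17 bases from the end 18.03% to 36.5%. Groups did not separate at either of them (exact permutation p = 0.7 and p = 0.8), and the share of whole-CCA fragments that were 17 to 19 nt long was 71.8% ± 12.03 and 71.2% ± 9.19 (SD, n = 3 each, exact permutation p = 0.9). Over 27 distances, the groups did not overlap at 4 (14.8%), and over 7 classes of start they did not overlap in 1 (14.3%), the starts 24 to 25 bases from the end. Only exact matches were counted, so fragments that hold the A of the T loop and were misread there are missing from these shares. With 1 mismatch allowed, the 17 to 19 nt share of whole-CCA fragments averaged 71.5% in control and 70.9% in experimental libraries. The share of each start was not computed with mismatches.

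This distance falls in the T loop. The letters TTCNANN, on the tRNA's own strand with N for any base, were found 23 bases from the end in 131 of the 168 tRNAs (78.0%). Those tRNAs carried 98.5% to 99.3% of the fragment reads. By the tRNA sequence, every read that began 18 bases from the end followed an A, in all 6 libraries. Every read that began 22 bases from the end started with TCNA, and 82.1% to 97.7% of them with TCGA. These letters are mostly given by the motif once the distance is chosen, so they describe the tRNAs and not a choice of the cut. The first base itself was more mixed: among starts 16 to 18 bases from the end, A opened 32.7% to 40.3% of reads, T opened 38.1% to 47.5%, C opened 17.3% to 21.9% and G at most 0.916%.

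**Figure D1:**
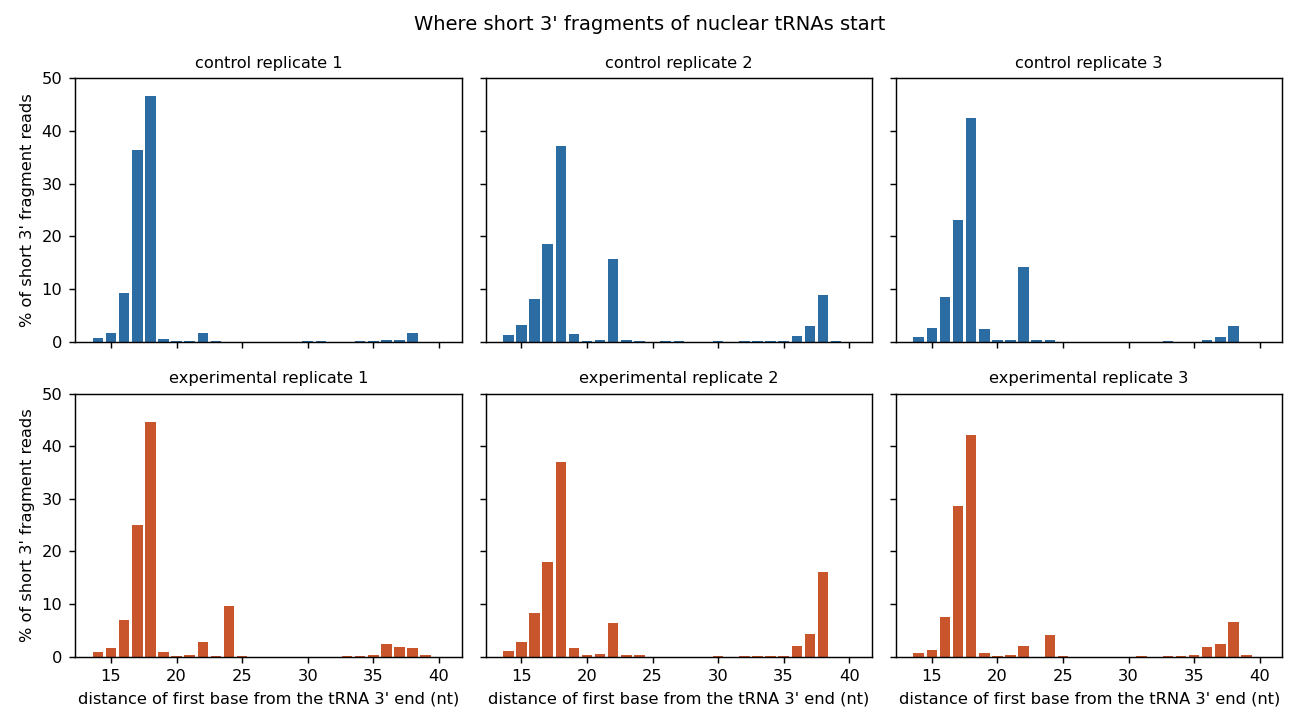
Share of short 3' fragment reads (y axis, %) by the distance of the fragment's first base from the 3' end of the tRNA (x axis, nt), with 1 panel per library, control in blue and experimental in orange. All 6 libraries peak at 18; a second peak at 22 is high in control replicates 2 and 3, one at 24 in experimental replicates 1 and 3, and one at 38 is highest in experimental replicate 2.

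The tRNAs differed in which of the neighbouring bases, 18 or 17 from the end, opened the fragment, and 9 of 11 groups of tRNAs lay on the same side of 50% in every library. These 11 groups had at least 20 reads at both starts together in each library. Groups whose start at 17 was shared by tRNAs with different bases before it were left out. Leu-CAA and Leu-CAG fragments began at 18 in 88.3% to 94.6% of these reads, and those of Ala-AGC and Ala-TGC in 87.5% to 90.2%. Fragments of Tyr-GTA began there in 36.5% to 53.5% and those of Gly-CCC and Gly-GCC in 35.7% to 59.3%, so these were the groups without a fixed side. Thr-TGT gave 19.3% to 41.3%, Cys-GCA 15.5% to 37.9% and Phe-GAA, at the low end, 10.4% to 21.9%. Among these 11, the ranges of the 6 pairs of leucine, alanine and proline tRNAs lay above those of the other 5 without overlap. Taken by amino acid, isoleucine fragments began at 18 in 90.7% to 95.1% and lysine fragments in 0% to 12.5% of these reads. Serine fragments, at 71.2% to 88.3%, and glutamic acid fragments, at 90% to 100% of few reads, also began mostly at 18. Tryptophan fragments, at 36.7% to 78.8%, had no fixed side. The split among the 11 groups therefore does not set leucine, alanine and proline apart from all other amino acids. The single bases next to the cut at 18 do not sort these 11 pairs: the base before it is A in all 11, and the base after it is A in Cys-GCA and Thr-TGT as in the leucine tRNAs. Whether bases further away go with the choice was not tested. Between control and experimental libraries the choice overlapped in 15 of 16 amino acids (1 did not, 6.25%), valine being the exception at 28.6%, 27.0% and 33.2% against 25.5%, 23.4% and 23.1%.

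**Figure D2:**
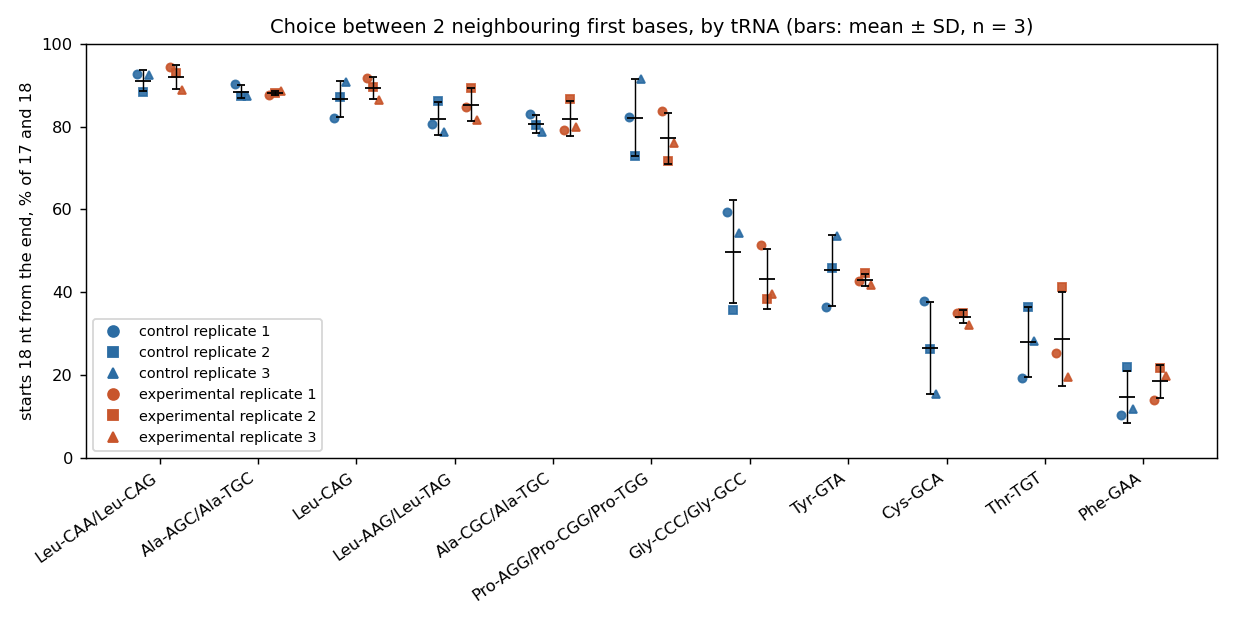
Reads that began 18 nt from the 3' end as a percentage of those that began 17 or 18 nt from it (y axis), for 11 groups of tRNAs that share the sequence (x axis), with 1 point per library and bars for the mean and SD of 3. Leucine, alanine and proline tRNAs lie between 71.7% and 94.6%, and phenylalanine tRNA between 10.4% and 21.9%, in control and experimental libraries alike.

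Starts 22 bases from the end, inside the T loop, varied more between libraries than between groups. They took 1.68%, 15.6% and 14.1% of fragment reads in control and 2.82%, 6.41% and 1.99% in experimental libraries. Histidine and glycine fragments often began there. Of glycine fragment reads, 3.51%, 51.9% and 57.1% began 21 to 23 bases from the end in control and 23.1%, 39.6% and 15.5% in experimental libraries, with overlap. Of histidine fragment reads, 67.4%, 80.0% and 98.5% began 21 to 23 bases from the end in control and 41.4%, 35.1% and 32.4% in experimental libraries, with no overlap (82.0% ± 15.7 and 36.3% ± 4.62, SD, n = 3 each, exact permutation p = 0.1, adjusted p = 0.711 over 16 amino acids). Starts 16 to 18 bases from the end took 24.6%, 13.8% and 1.47% of histidine reads in control and 44.3%, 47.9% and 54.1% in experimental libraries. Histidine reads numbered 37 to 187 per library.

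Starts 24 bases from the end, at the last base of the T stem before the loop, were rare in the control, with 0.0311%, 0.141% and 0.347% of fragment reads. They took 9.70% in experimental replicate 1, 0.428% in replicate 2 and 4.16% in replicate 3, so the groups did not overlap (exact permutation p = 0.1, adjusted p = 0.675 over 27 distances), though replicate 2 lay close to the control. In experimental replicates 1 and 3, glutamic acid tRNA gave 54.8% and 65.5% of the reads that began 24 to 25 bases from the end, and alanine tRNA 33.3% and 21.7%. The other 4 libraries held few such reads: 0.0466%, 0.169% and 0.347% of 12869, 3550 and 2880 fragment reads in control, and 0.445% of 6072 in experimental replicate 2. No order of amino acids can be read from so few. Glutamic acid tRNA gave 50% of them in control replicate 2 and none in control replicates 1 and 3, where alanine gave 66.7% and 60%. It gave 18.5% in experimental replicate 2, level with valine. The 24 nt Glu-TTC fragment printed above had 116 and 25 reads in experimental replicates 1 and 3, 2 reads in control replicate 2 and none in the other 3 libraries. Its form ending in CC had 57, 2 and 41 reads in experimental libraries and none in the control, where a count of 0 allows up to 0.0233%, 0.0845% and 0.104% of fragment reads. The alanine fragment of the same start had 93, 3 and 19 reads in the experimental and 1, 0 and 4 in the control libraries. High counts at this start were found in 2 of the 6 libraries.

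Starts 34 to 40 bases from the end lie, in most of these tRNAs, at the 3' side of the anticodon arm, close to where the choice of fragments begins. They took 2.55%, 13.2% and 4.44% of fragment reads in control and 6.67%, 22.8% and 11.8% in experimental libraries (exact permutation p = 0.3). Alanine and valine tRNAs gave most of them in the control, with 29.6% to 36.8% and 28.1% to 33.5%. Glutamic acid tRNA gave 8.54%, 11.1% and 12.5% in control and 50.4%, 13.7% and 27.7% in experimental libraries. The 38 nt alanine fragment was the most abundant of them, and experimental replicate 2 alone held 309 of its reads, against 19 and 52 in the other experimental and 62, 81 and 25 in the control libraries. Sequences that began 3 bases after the anticodon, just inside the choice, numbered 77 and had 91 to 1055 reads per library. The 55 sequences that began 2 bases after it, just outside, had 32 to 331. No fragment was longer than 40 nt. Leucine and serine tRNAs are longer, as in the 85 bases of the leucine tRNA printed above, so starts at this distance lie further past the anticodon there. Leucine tRNAs gave 1.08% to 8.84% of the reads with starts 34 to 40 bases from the end and serine tRNAs 0.217% to 1.52%.

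The CCA end was whole on most fragments. It was whole on 89.7%, 84.8% and 89.1% of reads in control and on 84.0%, 80.6% and 70.4% in experimental libraries, without overlap (87.9% ± 2.70 and 78.4% ± 7.07, SD, n = 3 each, exact permutation p = 0.1, adjusted p = 0.15 over 3 kinds of end). The end had lost its A on 10% to 14.6% of control and 14.4% to 24.02% of experimental reads. Fragments that kept only the first C were few, at 0.272%, 0.676% and 0.486% in control and 1.60%, 2.04% and 5.54% in experimental libraries, again without overlap. Experimental replicate 3 was the most trimmed library, and without it the difference in whole ends was -5.54 in place of -9.50 percentage points. Sequences that ended 1 base before these, just outside the choice, had 17 to 131 reads per library.

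Trimming differed by where the fragment began and by amino acid. Fragments that began 16 to 18 bases from the end were whole in 90.5%, 89.4% and 91.3% of control and 88.5%, 85.3% and 76.6% of experimental reads. Those that began 34 to 40 bases from the end were whole in 79.9%, 73.5% and 76.6% of control and 62.1%, 66.6% and 36.3% of experimental reads. Those that began 21 to 23 bases from the end went the other way, at 73.8% ± 9.58 in control and 82.4% ± 4.48 in experimental libraries (SD, n = 3 each, exact permutation p = 0.2). Of 16 amino acids, 7 (43.8%) had no overlap between the groups: alanine, cysteine, glutamic acid, leucine, proline, serine and valine, all with fewer whole ends in experimental libraries (exact permutation p = 0.1 each, adjusted p = 0.229). Glutamic acid fragments were the extreme, whole in 81.8%, 67.0% and 84.1% of control and 57.4%, 43.3% and 28.4% of experimental reads. Leucine fragments were whole in 92.7% to 93.3% of control and 82.7% to 89.4% of experimental reads. Glycine, lysine and phenylalanine fragments overlapped, with means of 82.4% and 81.7%, 68.1% and 69.8%, and 86.4% and 85.8%. Histidine fragments were the most trimmed in the control, whole in 57.7%, 37.9% and 58.8% of reads, and in 54.3%, 58.5% and 56.8% in experimental libraries.

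The same could be read at single cut sites, where only the end varies. At 22 sites with at least 20 reads in every library, the whole end was less frequent on average in experimental libraries at 20, and the groups did not overlap at 6 (27.3%), all of them lower. For the leucine fragment that begins 18 bases from the end, the whole form made up 95.5%, 94.9% and 96.5% in control and 91.2%, 90.1% and 84.9% in experimental libraries. For the alanine fragment printed above it made up 95.1%, 97.2% and 97.2% against 91.6%, 91.5% and 79.9%. For the valine fragment that begins 17 bases from the end it made up 87.1%, 90.1% and 84.9% against 82.5%, 69.95% and 55.1%. Each gave exact permutation p = 0.1 and adjusted p = 0.367 over the 22 sites. The whole end was also less frequent on short 3' fragments of aspartic acid, glutamine and arginine tRNAs (86.6% ± 5.89 and 62.2% ± 15.2, SD, n = 3 each), without overlap. On those of mitochondrial tRNAs it made up 80.6%, 80.4% and 80.5% in control and 80.3%, 74.9% and 63.7% in experimental libraries (80.5% ± 0.120 and 73.0% ± 8.45). Experimental replicate 1 lay only just below the control there, and the lower mean came mostly from replicates 2 and 3. The difference was thus not confined to the fragments described here.

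**Figure D3:**
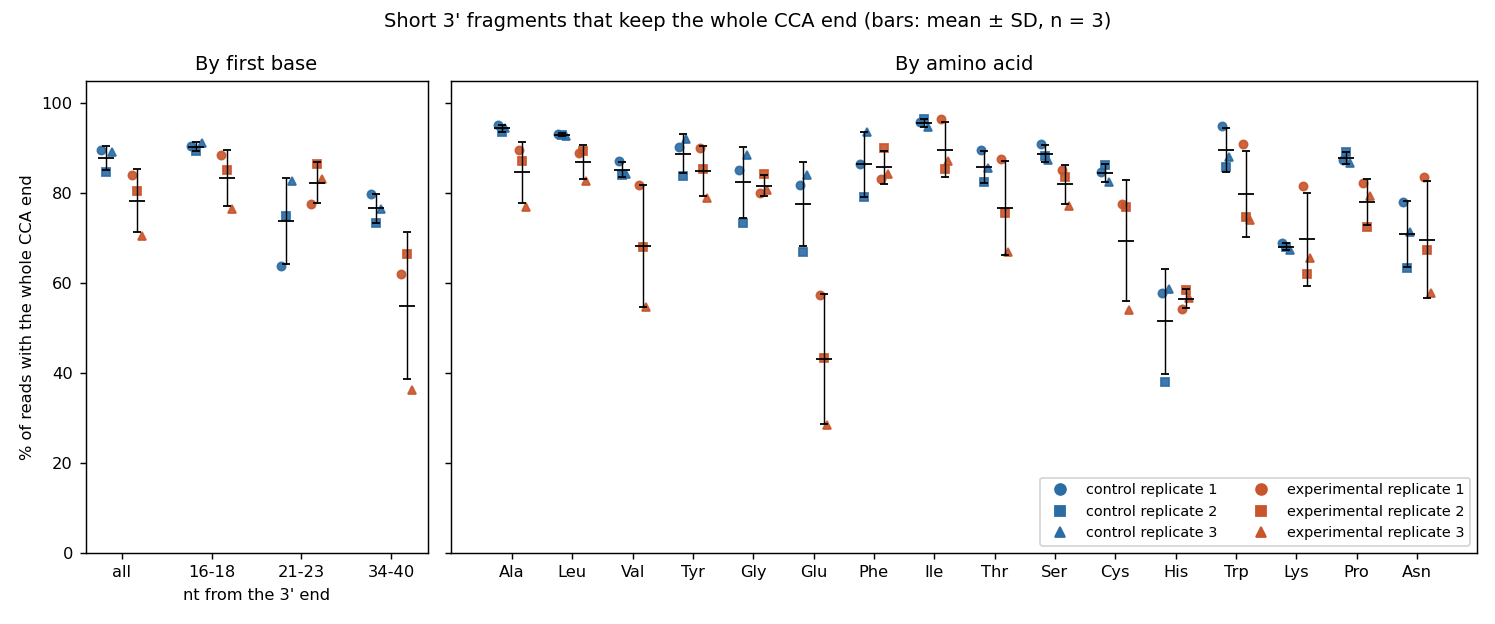
Reads of short 3' fragments that keep the whole CCA end (y axis, %), for all fragments and by distance of the first base from the 3' end (left) and by amino acid (right), with 1 point per library and bars for the mean and SD of 3. Experimental libraries lie below control libraries for all fragments (70.4% to 84.0% against 84.8% to 89.7%) and lowest for glutamic acid, while glycine, histidine and lysine overlap.

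Alanine and leucine tRNAs supplied the most fragments, followed by valine and tyrosine. Between the groups, 6 of 16 amino acids (37.5%) did not overlap in their share of fragment reads. Alanine took 15.1%, 19.9% and 19.03% in control and 22.2%, 32.8% and 20.6% in experimental libraries. Tyrosine took 9.17%, 6.82% and 7.95% against 15.6%, 9.78% and 12.4%. Glutamic acid took 0.940%, 2.82% and 2.40% against 9.84%, 4.83% and 7.50%. These 3 were higher in every experimental library. Glycine took 8.40%, 8.90% and 8.82% in control and 4.09%, 3.79% and 3.24% in experimental libraries. Isoleucine took 5.33%, 4.08% and 4.65% against 2.16%, 2.16% and 2.76%. Leucine took 21.96%, 23.5% and 22.7% against 19.5%, 15.5% and 19.9%. These 3 were lower in every experimental library. The means of glycine were 8.71% ± 0.269 and 3.70% ± 0.430 (SD, n = 3 each). All 6 had exact permutation p = 0.1 and adjusted p = 0.267 over 16 amino acids.

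Shares are parts of a whole, so a higher share of 1 amino acid lowers the rest. Within the fragments that began 16 to 18 bases from the end, tyrosine still took more in every experimental library (9.74%, 8.55% and 9.44% against 19.6%, 14.2% and 15.4%) and alanine as well (14.7%, 16.1% and 16.8% against 20.97%, 25.4% and 18.8%). Glycine (8.37%, 5.78% and 4.65% against 3.23%, 2.97% and 2.85%) and isoleucine (5.42%, 4.98% and 5.54% against 2.64%, 2.86% and 3.30%) took less. Glutamic acid did not separate there, at 0.479%, 0.176% and 0.611% against 0.522%, 0.521% and 0.879%. Of its own reads, starts at 24 to 25 took 0%, 3% and 0% in control and 55.35%, 1.71% and 37.05% in experimental libraries. Starts at 34 to 40 took 23.1%, 52.0% and 23.2% against 34.1%, 64.5% and 43.7%. The start at 24 thus went with its higher share in experimental replicates 1 and 3 but not in replicate 2. Phenylalanine was high in control replicate 1 alone, at 9.43% of all fragment reads against 3.23% to 4.24% in the other 5 libraries.

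**Figure D4:**
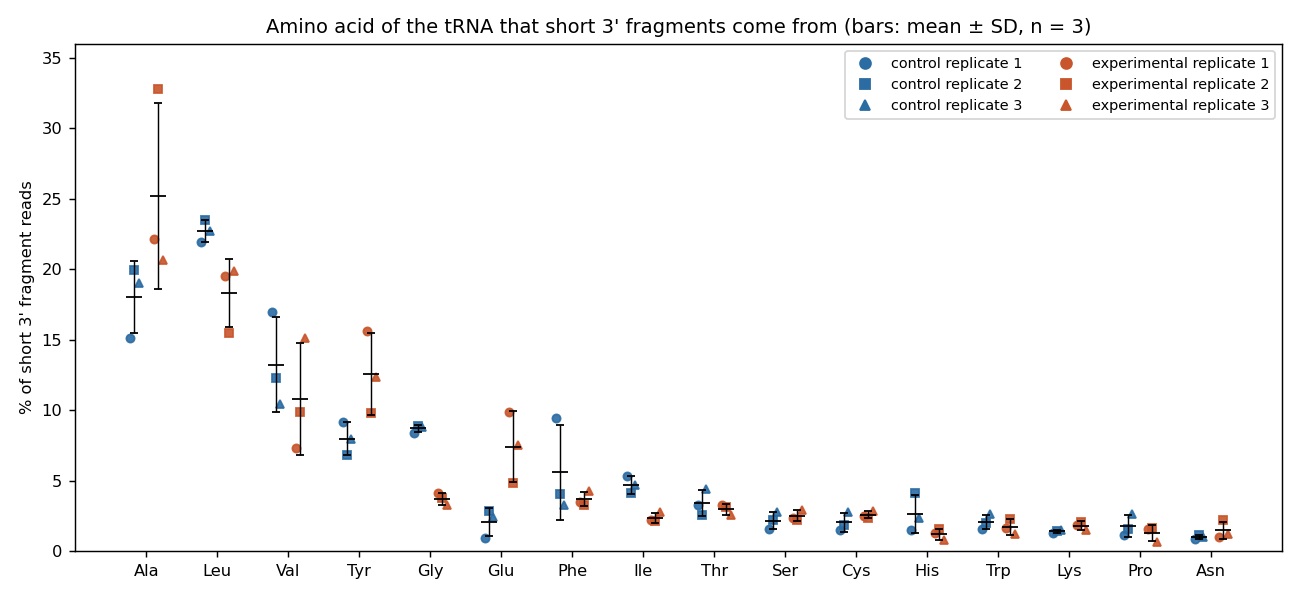
Share of short 3' fragment reads (y axis, %) by the amino acid of the tRNA (x axis, in order of the mean share), with 1 point per library and bars for the mean and SD of 3. Glycine lies at 8.40% to 8.90% in control and 3.24% to 4.09% in experimental libraries, and tyrosine and glutamic acid lie higher in experimental libraries.

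Among single fragments, the leucine fragment of 18 nt had the highest mean share of fragment reads and took 9.17%, 10.5% and 10.5% in control and 6.92%, 7.20% and 6.92% in experimental libraries. The alanine fragment of 18 nt took 7.87%, 5.97% and 7.33% against 8.14%, 8.32% and 6.64%. The tyrosine fragment of 17 nt took 4.90%, 2.23% and 2.74% against 7.27%, 3.79% and 5.29%. The leucine values did not overlap, while those of alanine and tyrosine did. The valine fragment of 17 nt took 8.21% in control replicate 1 and 2.11% to 3.97% in the other 5 libraries, and the phenylalanine fragment of 17 nt took 6.82% in that library and 1.93% to 2.59% in the others. The isoleucine fragment of 18 nt took 4.27%, 2.54% and 3.19% against 1.78%, 1.45% and 1.99%. Among amino acids with fewer reads, the most abundant fragments were those of Thr-TGT at 17 nt with a mean share of 1.15%, Cys-GCA at 17 nt with 1.05%, Ser-AGA and Ser-TGA at 18 nt with 0.809%, Pro-AGG, Pro-CGG and Pro-TGG at 18 nt with 0.735%, Trp-CCA at 18 nt with 0.664%, Lys-TTT at 16 nt with 0.326% and Asn-GTT at 17 nt with 0.286%.

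Levels relative to all tRNA fragments were compared with limma voom over the whole table, as read counts scaled to library size (normalised CPM). Of 2226 sequences with enough reads, 7.64% were lower and 18.7% higher in experimental libraries at an adjusted p under 0.05. Only 70 of the 977 short 3' fragments had enough reads, and they held 74.1% of the fragment reads. Of the 70, 9 were lower and 0 higher. At an unadjusted p under 0.05 there were 24, where 37.3% of all sequences passed. Their median log2 fold change was -1.25, against 0.21 over all sequences, and 21 of the 70 did not overlap between the groups, against 40.7% of all sequences. In 20 of these every experimental library lay below every control library, against 14.6% of all sequences. The other 907 fragments were not tested, and the 70 are those abundant enough in at least 3 libraries. All 9 called fragments were above this minimum in the 3 control libraries and in fewer than 3 experimental ones, so they entered the test through the group where they were high. Of the 28 fragments above it in all 3 experimental libraries, 0 were called. The counts and the median therefore describe the tested fragments and are no support for a fall of short 3' fragments in general.

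The called fragments came from glycine, histidine, leucine and threonine tRNAs. The 22 nt histidine fragment stood at 132, 58.5 and 112 normalised CPM in control and 9.52, 14.4 and 1.80 in experimental libraries (log2 fold change -3.90, SE 0.956, adjusted p = 0.000651). Its form without the last A stood at 112, 92.3 and 67.1 against 14.7, 15.4 and 4.81 (log2 fold change -3.09, SE 0.926, adjusted p = 0.00619). Neither overlapped between the groups. The 22 nt glycine fragment had 34.9, 114 and 308 against 25.1, 28.9 and 9.02 (log2 fold change -2.52, SE 0.907, adjusted p = 0.0258), and its form without the last A at 17.4, 44.2 and 30.8 against 4.33, 0.963 and 0 (log2 fold change -4.55, SE 1.02, adjusted p = 0.000174). The last rested on 9, 34 and 11 reads in control and 5, 1 and 0 in experimental libraries, which were all under the minimum there. These 4 were the called ones among 5 tested fragments that began 22 bases from the end, and the remaining one, of alanine, had a log2 fold change of -1.65 (SE 0.910, adjusted p = 0.166). All 5 were above the minimum in the 3 control libraries and in fewer than 3 experimental ones.

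Glycine fragments that began at the 3' side of the T loop were also lower. The fragment of Gly-CCC and Gly-GCC that begins 18 bases from the end had 513, 20.8 and 75.5 against 23.4, 11.6 and 10.2 normalised CPM (log2 fold change -2.72, SE 0.915, adjusted p = 0.0159), where control replicate 2 fell within the experimental range. The one that begins 17 bases from the end missed the threshold (log2 fold change -2.24, SE 0.909, adjusted p = 0.0518). The one that begins 16 bases from the end stood at 269, 23.4 and 50.3 against 10.4, 11.6 and 8.42 (log2 fold change -2.74, SE 0.931, adjusted p = 0.0173). In all, 5 of 7 tested glycine and 2 of 2 tested histidine fragments were called, where 7.64% of all sequences were lower. All of these, called or not, were above the minimum in the 3 control libraries and in fewer than 3 experimental ones. The tally is therefore no support for a fall of glycine or histidine fragments in general. The Thr-TGT fragment of 17 nt had a log2 fold change of -2.23 (SE 0.893, adjusted p = 0.0485) and overlapped.

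The remaining called fragments were sequence variants that differ by 1 base from an abundant one. They are shown beside it, each with the fragment in capitals.
Leu-AAG and Leu-TAG, abundant: gttcgaATCCCACCGCTGCCACCA
Leu-TAG, variant: gttcgaATCCCACCACTGCCACCA
Gly-CCC and Gly-GCC, abundant: gttcgaTTCCCGGCCAATGCACCA
Gly-GCC, variant: gttcgaTTCCCGGCCCATGCACCA
Counted from 1 at the fragment's first base, the leucine variant differs by G9A and the glycine variant by A10C. The leucine variant is encoded by tRNA-Leu-TAG-2-1 (chr15:28011629-28011710) and the glycine variant by 2 tRNAs, among them tRNA-Gly-GCC-2-1 (chr13:89442219-89442289), so each is a match to its own gene. The leucine variant stood at 62.0, 23.4 and 25.2 against 1.73, 4.82 and 3.01 normalised CPM (log2 fold change -3.35, SE 1.01, adjusted p = 0.0063). It had 32, 18 and 9 control reads and 2, 5 and 5 experimental reads, all of the latter under the minimum. By comparison, the abundant leucine fragment stood at 2285, 483 and 845 against 330, 421 and 199 (log2 fold change -1.69, SE 0.877, adjusted p = 0.14). The glycine variant stood at 197, 13.0 and 25.2 against 11.2, 5.78 and 3.01 (log2 fold change -2.74, SE 0.976, adjusted p = 0.0236). Whether the variants changed more than the abundant forms was not tested. The alanine fragments that differ from each other by T10C were both not called, with log2 fold changes of -1.05 (Ala-CGC and Ala-TGC) and -0.28 (Ala-AGC and Ala-TGC).

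**Figure D5:**
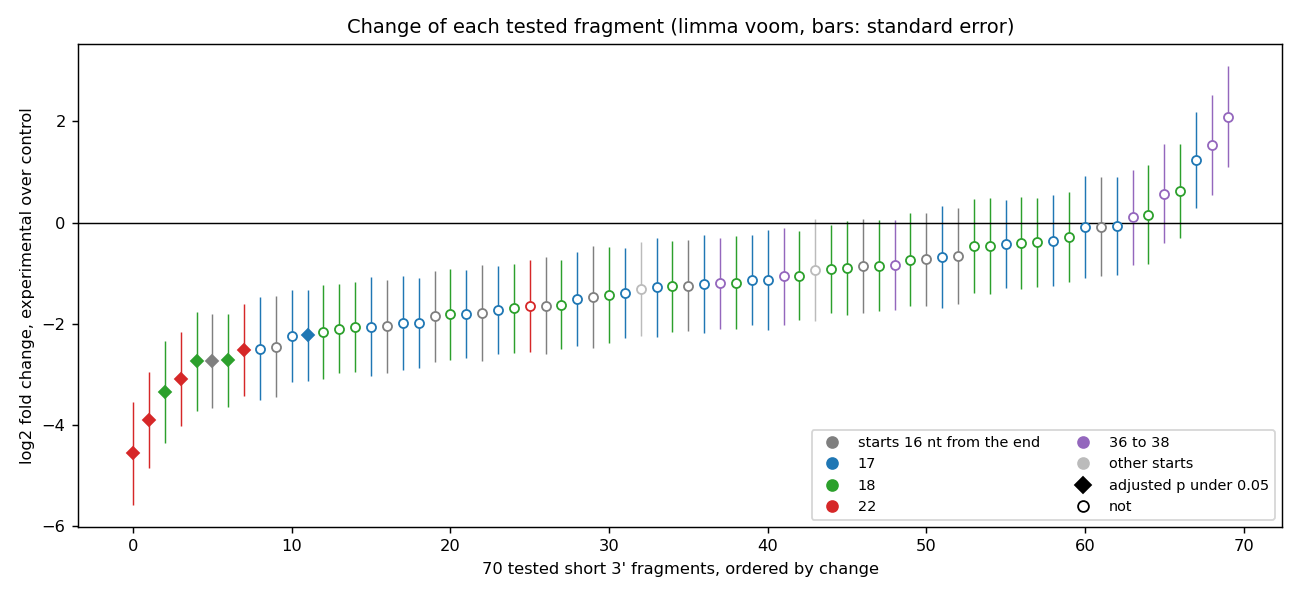
Log2 fold change, experimental over control, of each of the 70 tested short 3' fragments (y axis, bars for the standard error from limma voom), ordered by change (x axis) and coloured by the distance of the first base from the 3' end. The 9 called fragments (filled diamonds) lie between -4.55 and -2.23, and the 5 highest values, none of them called, belong to glutamic acid, tyrosine and alanine fragments without the last A.

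The calls rested on a spread shared by all sequences. With each sequence's own spread, limma voom called 0 of the 70, while it called 0.359% of all sequences lower and 0.674% higher. At an unadjusted p under 0.05 there were 6 of the 70, against 26.5% of all, and the adjusted p of the 9 lay between 0.0776 and 0.293. Leaving out 1 library lowered the number of libraries that had to reach the minimum, so more fragments were tested. There were 25 lower calls of 108 tested without control replicate 2 and 5 of 91 without experimental replicate 1. Without experimental replicate 3 there was 1 of 97, which was none of the 9. The share called over all sequences in these fits is not given here, so these counts cannot be set against the 9 of 70. Of the 9, 5 remained without control replicate 1, 8 without control replicate 2, 7 without control replicate 3, 4 without experimental replicate 1, 4 without experimental replicate 2 and 0 without experimental replicate 3.

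Summed by amino acid, 18 kinds of tRNA had enough short 3' fragment reads, and 5 sums were lower and 0 higher by limma voom, where 10.8% of all 158 sums by amino acid and position were lower and 8.86% higher. At an unadjusted p under 0.05 there were 9 of the 18, against 30.4% of all sums. Glycine stood at 3968, 549 and 794 normalised CPM in control and 212, 266 and 133 in experimental libraries (log2 fold change -2.67, SE 0.707, adjusted p = 0.00561). Isoleucine stood at 2492, 247 and 407 against 109, 146 and 110 (log2 fold change -2.42, SE 0.692, adjusted p = 0.00739), and histidine at 686, 252 and 213 against 65.9, 109 and 31.8 (log2 fold change -2.41, SE 0.698, adjusted p = 0.00763). None of these 3 overlapped, and control replicate 1 was by far the highest library in each. In 7 of the 18 sums every experimental library lay below every control library, against 17.7% of all 158 sums. Phenylalanine and proline had log2 fold changes of -1.88 each (SE 0.693 and 0.699, adjusted p = 0.0422 and 0.0423). Phenylalanine rested on control replicate 1, with 4452 against 250 and 291 in the other control libraries, and proline overlapped.

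None of the amino acids with higher shares passed the test of level. Tyrosine fragments stood at 4331, 420 and 716 against 808, 687 and 507 normalised CPM (log2 fold change -0.80, SE 0.736, adjusted p = 0.489), and alanine fragments at 7150, 1229 and 1714 against 1149, 2302 and 848 (log2 fold change -0.93, SE 0.765, adjusted p = 0.435). Glutamic acid was the 1 sum of 18 with a positive value, at 444, 174 and 216 against 510, 339 and 308 (log2 fold change 0.57, SE 0.708, adjusted p = 0.621). The median over the 18 sums was -1.42, against -0.17 over all 158. With each sum's own spread limma voom called 0 of 18, with a lowest adjusted p of 0.262, and 2 had an unadjusted p under 0.05, against 17.7% of all sums. Leaving out control replicate 1 left 2 calls (glycine and histidine), control replicate 3 or experimental replicate 2 left 4, experimental replicate 3 left 2 (glycine and isoleucine) and experimental replicate 1 left 0. The share called over all sums in these fits is not given here.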

How the data were processed

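Small RNA was read from 6 rat muscle samples, 3 control and 3 experimental. Per the file headers, the authors reduced reads to unique sequences, matched each to mature tRNAs (CCA included) and precursors with up to 1 mismatch, and deposited how often each was read per library. These raw counts were not scaled. The aligner was not given in the sources used here. Per the submitters' processing notes the build was mm9, of mouse, but the positions run past it. Exact matches were taken, so fragments misread at a modified base are not counted. Each sequence was counted once. The members and lists were chosen with earlier results of these data known. Lines of text between the values kept the columns from passing as plain counts, so limma 3.58.1 voom (R 4.3.3, prior count 0.5) was used in place of a count model. It was fitted on every sequence that reached, in 3 libraries, the CPM that 10 counts are worth in a library of median size, with 15 counts or more overall. When 1 library was left out, as many libraries as the smaller group held were enough. The fit used trimmed mean of M values factors (trims 0.3 and 0.05) with Benjamini-Hochberg adjustment at 0.05. Factors for sequences were 0.986, 1.10 and 1.19 in control and 1.46, 0.562 and 0.939 in experimental libraries, and for sums 0.673, 1.07 and 1.41 against 1.67, 0.663 and 0.895. The prior degrees of freedom were infinite for sequences. For shares, group means were set against each other in two-sided exact permutation tests (Python 3.11.15, SciPy 1.17.1), whose smallest p is 0.1. Wilson intervals are at 95%, and a count of 0 allows 3 reads. The script was tested on simulated data with 200 changed features. Fragments are named if among the 12 most abundant, the most abundant of an amino acid with at least 1% of reads, or among the 5 most changed calls in a direction, with their trimmed and neighbouring forms; other names were chosen after their values were seen. Alternatives were 1 mismatch allowed, a minimum of 10 reads, other denominators, scalings, filters and spreads, a replicate block and each library left out.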

Additional observations from a re-analysis of the deposited data

How the results depend on the processing

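The lower share of whole CCA ends in the experimental libraries kept its direction with 1 mismatch allowed, with at least 10 reads per fragment, without fragments that also match arginine tRNAs, in starts at most 28 bases from the end (an alternative chosen after seeing the data) and without any 1 library, as did the lower share of tRNA-aligned reads, also over nuclear reads. Without 1 library these differences ran from -12.3 to -5.54 and from -1.22 to -0.294 percentage points. The share of 17 to 19 nt fragments reversed from -0.550 to 0.170 with at least 10 reads per fragment and ran from -5.94 to 5.94 without 1 library.
The lower calls among fragments were 9 as reported, 15 with median-of-ratios factors, 4 with library totals, 25 with 7 higher without the filter (610 tested), 8 with limma's trend and 0 with own spread. Without 1 library they ran from 1 to 25 lower and 0 to 3 higher, of 89 to 108 fragments tested. The 5 lower sums became 3 under median-of-ratios scaling and 0 under library totals, own spread and 1 mismatch allowed, and 0 to 5 without 1 library. The share called over all sequences or sums is given above only for the reported fits and for own spread. The other counts of calls in this section thus describe the fits and are no result about the fragments. The median log2 fold change over all sequences was 0.21 as reported, 0.011 under median-of-ratios scaling and -0.07 under library totals, and that of the 70 fragments -1.25, -1.44 and -1.54. The deviations of same-numbered libraries correlated at -0.31, -0.0573 and 0.136, within the range of differently numbered ones (-0.417 to 0.378). Replicate numbers thus gave no sign of pairing, but with 3 libraries per group this cannot exclude it. A replicate block gave 8 lower fragments and 3 lower sums (glycine, isoleucine and histidine).
Reversed values were all of uncalled items. Without 1 library, the difference in amino acid share ran from -3.08 to 0.0190 percentage points for phenylalanine and from -0.848 to 0.0581 for threonine. Log2 fold changes ran from -1.19 to 0.62 (Tyr-GTA 17 nt), -1.18 to 0.43 (Tyr-GTA 18 nt), -1.75 to 0.27 (Lys-TTT 16 nt), -0.91 to 1.08 (Asn-GTT 17 nt) and -1.15 to 0.23 (tyrosine sum), the positive values coming without control replicate 1 and, for the 4 fragments, also without experimental replicate 3 (0.020, 0.10, 0.045 and 0.59). Asn-GTT gave 0.19 without the filter. With 1 mismatch allowed the sums of asparagine (0.098), methionine (0.27) and tyrosine (0.015) reversed.
With 2880 to 12869 fragment reads per library, most of the 977 fragments were too rare to compare, and own-spread calls are limited by 3 libraries per group. The causes of these differences between settings were not tested.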
